A study of Mus musculus with 24 samples.

Results

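The comparison described here set KO against WT cells at the hours when the REV-ERB transcripts stood near their peak in WT: 24, 28, 48 and 52 h after dexamethasone, which are hours 0 and 4 of a 24 h cycle. It held 8 of the 24 RNA-seq libraries of the series, 4 of WT and 4 of KO, and each KO library was paired with the WT library of its time point. The hours were chosen on the measured levels of Rev-erbα (Nr1d1) and Rev-erbβ (Nr1d2), so the values of these genes are given as a description and no test of them is reported. Both were in the fit of all genes, and Nr1d2 is among the genes counted as called.

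REV-ERBα and REV-ERBβ are heme-binding nuclear receptors that lack the activation function of most receptors of the family. They repress transcription by recruiting the NCoR-HDAC3 corepressor complex to DNA elements (ROREs, also called RREs) for which they compete with the activating ROR receptors. Bmal1 (Arntl) and Npas2 are the best described clock genes under this control, and their repression by REV-ERBs forms the second loop of the mammalian clock.

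Both lines were mouse embryonic stem (ES) cells carrying the Per2::Luciferase knock-in, a reporter fused to the clock gene Per2; WT cells had no other modification, and KO cells were in addition Rev-erba/Rev-erbb deficient. Cells were differentiated as embryoid bodies for 28 days and treated with 100 nM dexamethasone, a glucocorticoid that synchronises cellular clocks, and RNA was collected every 4 h from 12 to 56 h. There was 1 library per genotype and time point, and each pooled RNA of 3 embryoid bodies. KO cells came from a line cloned after successive rounds of CRISPR targeting, so the effect of the genotype and of the line cannot be told apart. No source states that time points were separate differentiations, so the p-values measure only the spread between these libraries, which may be technical.

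At these hours 6426254 to 9868080 fragments per library lay on exons of the 33079 gene models of the table, 44.8 to 45.5% of the library total. Markers of pluripotency were low, with summed levels of 1.41 to 2.48 RPKM (fragments per kilobase of exon, scaled to the library total) in WT and 1.04 to 4.19 in KO, and 3 of their 7 members, Nanog among them, were below the filter. The cultures held transcripts of epithelium, heart, smooth muscle, endothelium, macrophages and endoderm. In such bulk RNA, fewer cells of a type and less RNA per cell cannot be told apart.

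The 3 windows of 30 bases printed here show TAGGTCA, the end of the RORE, in genes that rose in KO cells. Only this core was searched for, so a window that holds it need not hold a full RORE. They are reference sequence of the GRCm38 build from the RefSeq promoter table, and the capitals mark the core TAGGTCA, the AGGTCA half-site preceded by T. Promoter windows of 300 bases, 250 before and 50 after each start, were searched on both strands, and 2.61% of the 32851 windows held TAGGTCA.
Arntl, chr7:113207527-113207556, plus strand: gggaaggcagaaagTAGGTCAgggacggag
Nfil3, chr13:52981031-52981060, plus strand: gagatgtgtgttagTAGGTCAgttccgagc
Plin2, chr4:86670257-86670286, plus strand: tctgctgtctgactTAGGTCAggggtcctg
In Arntl the core began at base 31 counted from a RefSeq start of the gene, and the GENCODE annotation placed it in the untranslated part of exon 1. Nfil3 and Plin2 lie on the minus strand, so their cores read opposite to the gene. That of Nfil3 reached to 12 bases upstream of the RefSeq start and fell in the untranslated part of exon 1 of the GENCODE model. That of Plin2 reached to 218 bases upstream of the start and lay outside any annotated gene. The table holds no window for Bhlhe40, Lpl and Per2. The windows of Npas2, Cry1, Dbp, Clock, Arntl2 and Cdkn1a held no TAGGTCA. Those of Cry1 and Plin2 held CACGTG, the E-box bound by CLOCK:BMAL1, as did 7.15% of all windows.

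Nr1d1, which encodes REV-ERBα, stood at 7.48, 5.78, 6.62 and 6.04 RPKM in WT and at 9.11, 9.65, 8.02 and 9.74 RPKM in KO at 24, 28, 48 and 52 h. Nr1d2, which encodes REV-ERBβ, stood at 2.66, 2.65, 2.38 and 3.02 RPKM in WT and at 3.72, 5.27, 3.85 and 4.67 RPKM in KO. Transcript levels of both genes were thus higher in KO at all 4 time points and the genotypes did not overlap. Just outside these hours, WT levels of Nr1d1 were 4.14 RPKM at 20 h, 4.05 at 32 h, 5.59 at 44 h and 5.19 at 56 h, and those of Nr1d2 were 1.36, 1.95, 1.70 and 2.29 RPKM. The deposited values sum the whole exonic length of a gene, so they do not show the loss of 1 exon, and the genotype rests on the labels. The model of Nr1d1 also shares 1075 bases with Thra on the opposite strand, and the library kit does not mark strand.

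**Figure D1:**
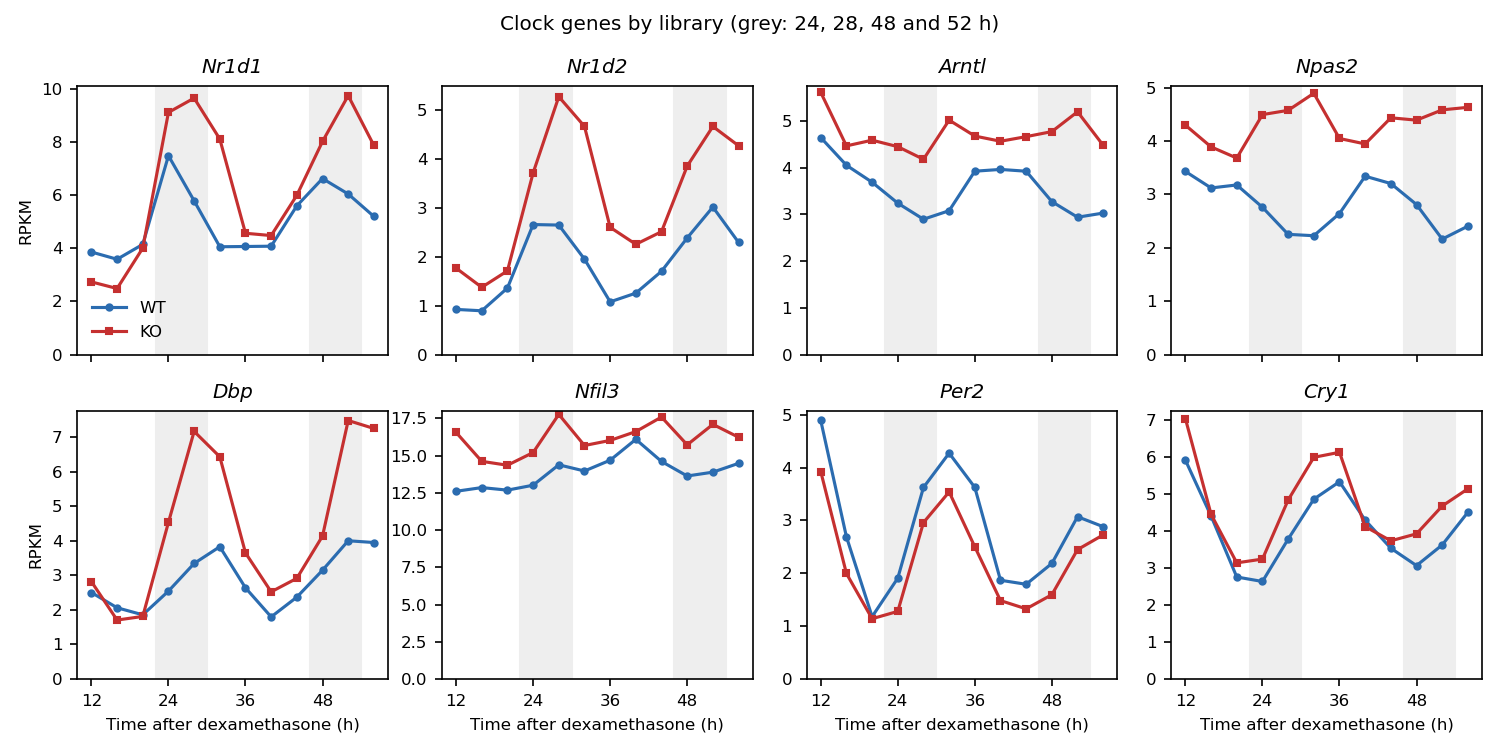
RPKM of 8 clock genes against hours after dexamethasone, 1 point per library (blue circles, WT; red squares, KO), with the 24, 28, 48 and 52 h libraries on grey. In the grey windows Nr1d1, Nr1d2, Arntl, Npas2, Dbp, Nfil3 and Cry1 are higher in KO in every pair, and Per2 is lower in every pair.

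Of 15112 genes tested, 670 (4.43%) differed between KO and WT at hours 0 and 4 at an adjusted p under 0.05. They comprised 355 genes that were higher in KO (2.35%) and 315 that were lower (2.08%). Differences above 0 were found for 7660 of the 15112. These shares over all genes are the background for the list counts that follow. Most differences were small: the median log2 difference was 0.50 among the genes that rose and -0.39 among those that fell, and 47 rose and 33 fell by more than 2-fold. All 4 pairs went the same way in 352 of the 355 rises and 313 of the 315 falls, and WT and KO levels did not overlap in 506 of the 670, against 12.7% of all genes tested, a count that the calls themselves favour. Differences are given as log2(RPKM + 0.1), KO minus WT, which understates the change of genes with low values. Each is a mean of 4 pairs, while its SE draws on the spread of all 24 libraries. The total depended on each pair: 119 genes were called without the 24 h pair, 191 without 28 h, 236 without 48 h and 317 without 52 h, and 94 were called with all pairs and in all 4 such fits. Without the time point in the fit, 185 genes were higher and 196 lower. In the paragraphs that follow, a call is said to hold if it was kept without any 1 pair.

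**Figure D2:**
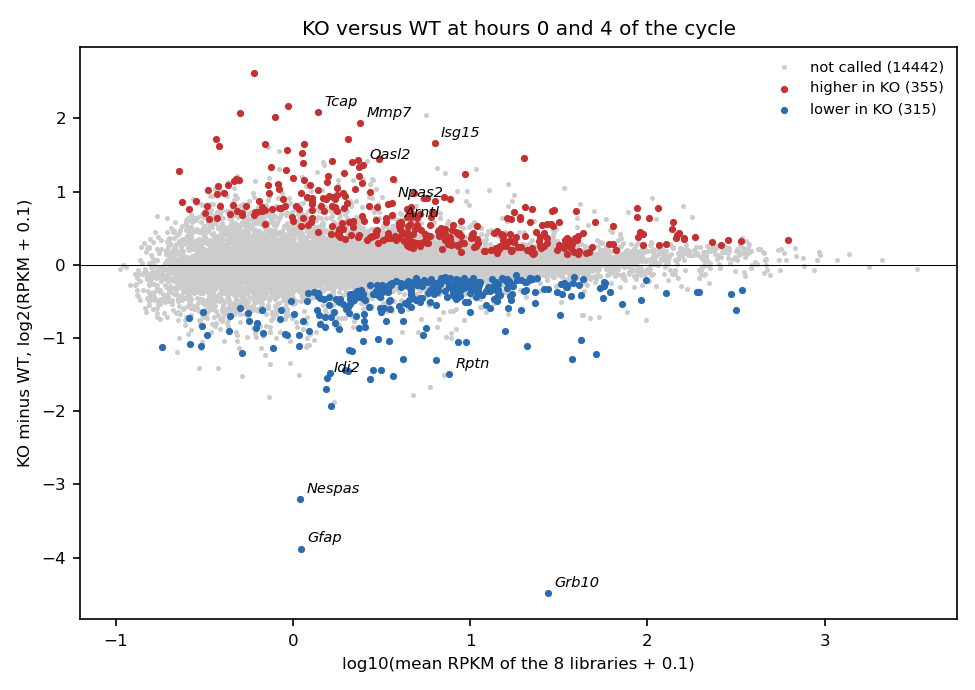
Difference between KO and WT at hours 0 and 4 (log2(RPKM + 0.1)) against mean level (log10 of RPKM + 0.1) for the 15112 genes tested; red points are the 355 genes higher in KO, blue points the 315 lower, and grey points were not called. Grb10, Gfap and Nespas stand farthest below 0, and Arntl and Npas2 lie within the main band of rises.

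The activators of the clock, which pair as BMAL1 with CLOCK or NPAS2 on E-boxes, were called higher in KO in 3 of 4 cases. The share over all genes tested was 2.35%. Arntl, the gene of BMAL1, measured 3.24, 2.89, 3.27 and 2.94 RPKM in WT at 24, 28, 48 and 52 h. In KO it measured 4.45, 4.18, 4.77 and 5.19 RPKM, so every KO library exceeded every WT library. The rise was 1.49-fold (log2 difference 0.57 ± 0.08, SE, n = 4 pairs, limma adjusted p = 0.00245) and it held, with a highest adjusted p of 0.014 without the 52 h pair. Npas2, the paralogue of Clock, measured 2.76, 2.25, 2.81 and 2.16 RPKM in WT and 4.5, 4.58, 4.39 and 4.59 in KO. Its KO libraries spanned a narrow range while the WT libraries were lower at 28 and 52 h than at 24 and 48 h. The rise was 1.79-fold (0.84 ± 0.13, adjusted p = 0.00491) and held, with a highest adjusted p of 0.032 without the 28 h pair.

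Clock itself measured 2.58 to 2.66 RPKM in WT and 2.03 to 2.59 RPKM in KO, and its difference of -0.14 ± 0.09 did not pass (adjusted p = 0.37). The groups overlapped in 1 library only, KO at 28 h. Arntl2, a second BMAL paralogue, was far lower, at 0.23 to 0.33 RPKM in WT and 0.36 to 0.72 in KO, with a mean of 12.2 and 27.4 fragments per library. Its rise (0.68 ± 0.18, adjusted p = 0.048) was lost without the pair at 24 h (0.16), 28 h (0.17) or 48 h (0.13).

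Among the 8 E-box repressors, which close the first loop by inhibiting CLOCK:BMAL1, 2 rose, 1 fell and 5 did not pass. The shares over all genes tested were 2.35% that rose and 2.08% that fell. Cry1, a cryptochrome that blocks the activator complex, measured 2.64, 3.78, 3.07 and 3.62 RPKM in WT and 3.24, 4.84, 3.93 and 4.68 in KO. Levels in both genotypes were lowest at 24 h and highest at 28 h, so the groups overlapped although each pair was higher in KO. The rise was 1.26-fold (0.34 ± 0.06, adjusted p = 0.0104) and held without any 1 pair, with a highest adjusted p of 0.050 without 28 h. Without the time point in the fit its adjusted p was 0.39. Bhlhe40 (Dec1), a helix-loop-helix repressor, rose from 13.4 to 16.2 RPKM in WT to 17.8 to 19.3 in KO (0.33 ± 0.08, adjusted p = 0.039), and this call was lost without any pair (adjusted p of 0.21, 0.099, 0.054 and 0.12 without 24, 28, 48 and 52 h).

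Per2 was the only repressor of this list called lower. It measured 1.91, 3.62, 2.19 and 3.07 RPKM in WT and 1.28, 2.96, 1.59 and 2.45 in KO, lower in KO in each pair though the groups overlapped. Its fall was 1.31-fold (-0.39 ± 0.08, adjusted p = 0.0162) and was lost without the pair at 24 h (0.11) or 48 h (0.064). Both genotypes carry the luciferase knock-in at this gene. The differences of Per1 (-0.12), Per3 (0.17), Cry2 (0.03), Ciart (0.30) and Bhlhe41 (0.41) did not pass, with adjusted p of 0.14 to 0.88.

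The PAR bZIP factors Dbp, Tef and Hlf are outputs of E-boxes that activate D-boxes, and Nfil3 (E4bp4) represses the same element. Dbp measured 2.54, 3.34, 3.15 and 4.00 RPKM in WT against 4.53, 7.16, 4.13 and 7.47 in KO. The lowest KO library lay just above the highest WT library, and the KO libraries were highest at 28 and 52 h. Its rise was 1.73-fold (0.79 ± 0.15, adjusted p = 0.0167), and it was lost without the pair at 24 h (0.088), 28 h (0.078) or 52 h (0.061). Nfil3 measured 13.0, 14.4, 13.6 and 13.9 RPKM in WT and 15.2, 17.8, 15.7 and 17.1 in KO, with no overlap. Its rise was small, 1.20-fold (0.26 ± 0.05, adjusted p = 0.0151), and was lost without the pair at 24 h (0.067), 28 h (0.068) or 52 h (0.060). Tef (-0.02 ± 0.07, adjusted p = 0.91) and Hlf (-0.16 ± 0.13, adjusted p = 0.50) did not pass.

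A list of 27 genes described as REV-ERB targets was examined, of which 23 were above the filter and Cyp7a1, G6pc, Pck1 and Elovl3 were not. Of these, 7 rose (against 2.35% of all genes tested), none fell and 16 did not pass. The median difference of the 23 was 0.08 against 0.00 over all genes tested. Arntl, Npas2, Cry1, Nfil3 and Bhlhe40 are given above, and the rest were the lipid genes Lpl and Plin2. Lpl, the lipoprotein lipase, measured 135, 131, 146 and 152 RPKM in WT and 169, 178, 172 and 203 in KO (1.28-fold, 0.35 ± 0.08, adjusted p = 0.028). Plin2, a coat protein of lipid droplets, measured 25.6 to 32.0 RPKM in WT and 34.1 to 35.3 in KO (0.28 ± 0.07, adjusted p = 0.042). Neither gene overlapped between genotypes, yet both calls were lost without any 1 pair, with adjusted p of 0.057 to 0.12 for Lpl and 0.053 to 0.23 for Plin2.

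Other described targets did not pass, among them Cdkn1a (p21; 101 RPKM in WT and 113 in KO, 0.17, adjusted p = 0.11). Cdkn1a was nevertheless higher in KO in all 4 pairs. At hours 12 and 16 of the cycle it was called higher in KO (0.23, limma adjusted p = 0.030). The paper reports p21 as upregulated in KO cells over its time course. At hours 0 and 4 Alas1, the first enzyme of heme synthesis, differed by 0.03, Insig2 by 0.00 and Klf15 by -0.07. Metabolic targets described in liver had wide spreads or low levels here, such as Apoc3 (-0.56, adjusted p = 0.50) and Ppargc1a at 0.24 RPKM in WT (-0.14, adjusted p = 0.68). None of the 6 genes of the NCoR-HDAC3 complex was called, with differences from -0.16 for Ncor1 to 0.07 for Tbl1xr1. None of 9 clock kinases and ubiquitin ligases was called, with differences from -0.21 for Fbxl21 to 0.08 for Csnk1e, and none of the 12 heme genes tested was called, with differences from -0.05 to 0.14. As 4.43% of all genes tested were called, few or no calls would be found in lists this small at that share.

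The same contrast at hours 12 and 16, the trough of the REV-ERB transcripts, served to show where hours 0 and 4 differ. Its differences rest on 8 other libraries, and 1313 genes (8.69%) were called there. Both classes were fitted together with 1 spread taken from all 24 libraries, so the calls of the classes are not independent. Of the 670 genes called at hours 0 and 4, 432 (64.5%) were also called at hours 12 and 16, which is 32.9% of the calls there, and all 432 had the same sign. The difference between the hour classes was tested for each gene with limma, and 0 genes (0%) passed. At an unadjusted p under 0.05 there were 513 (3.39%), with a smallest p of 2.1e-04 and a smallest adjusted p of 0.99996. No gene can therefore be called particular to the hours of high REV-ERB transcripts in these data.

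**Figure D3:**
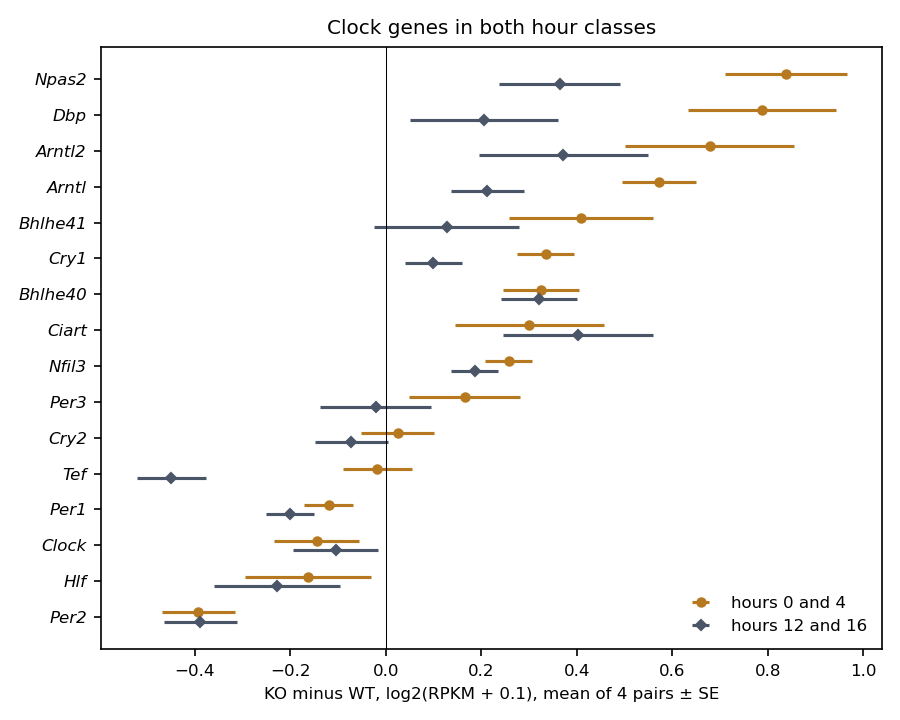
Difference between KO and WT (log2(RPKM + 0.1), mean of 4 pairs ± SE) for 16 clock genes at hours 0 and 4 (circles) and at hours 12 and 16 (diamonds). Npas2, Dbp, Arntl and Cry1 lie farther to the right at hours 0 and 4, while Per2, Bhlhe40 and Nfil3 lie at nearly the same place in both classes.

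For the clock genes the values of both classes are given with the difference between them and its SE. Arntl differed between genotypes by 0.57 at hours 0 and 4 and by 0.21 at hours 12 and 16, which is 0.36 ± 0.11 apart. For Npas2 the values were 0.84 and 0.36 (0.47 ± 0.18 apart), for Dbp 0.79 and 0.21 (0.58 ± 0.22) and for Cry1 0.34 and 0.10 (0.24 ± 0.08). Per2 differed by -0.39 in both classes, Bhlhe40 by 0.33 and 0.32 and Nfil3 by 0.26 and 0.19 (0.07 ± 0.07 apart). Tef went from -0.02 at hours 0 and 4 to -0.45 at hours 12 and 16 (0.43 ± 0.10 apart). The limma adjusted p for each of these differences between classes was 0.99996.

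Outside the clock and among genes with a mean of at least 1 RPKM in any of the 4 groups, those with the lowest unadjusted p for a class difference were Idi2, Gtf2f2, Ddx10, Tmprss11a and Tank in one direction and, after Tef, Abi3bp, Gm1673, Smco4 and Wdr34 in the other. Idi2, an isopentenyl diphosphate isomerase, fell at hours 0 and 4 by 2.92-fold, from 2.00, 2.39, 2.49 and 1.97 RPKM in WT to 0.51, 0.69, 0.64 and 0.97 in KO. The call held (-1.55 ± 0.20, adjusted p = 0.00162, highest 0.017 without 24 h), while the difference at hours 12 and 16 was -0.18, which is -1.37 ± 0.28 apart. Tmprss11a, a serine protease of stratified epithelia, had -0.94 and 0.01, Abi3bp, an extracellular matrix protein, had 0.41 and -0.14, and Smco4 had 0.40 and -0.05. The calls of these 3 at hours 0 and 4 did not hold: without 24 h their adjusted p were 0.086, 0.18 and 0.13, and Tmprss11a was also lost without 48 h (0.052), Abi3bp without 28 and 52 h (0.11 and 0.063) and Smco4 without 52 h (0.073). The other 5 of these 9 genes were not called at hours 0 and 4, where they differed by -0.07 to 0.30. Each of the 5 was called at hours 12 and 16 (limma adjusted p of 0.0043 to 0.033). There Gtf2f2 (0.50), Ddx10 (0.35) and Tank (0.28) were higher in KO, and Gm1673 (-0.63) and Wdr34 (-0.31) were lower.

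Grb10, an imprinted gene whose product binds and restrains the insulin and IGF-1 receptors, showed the largest fall. It measured 57.8, 54.1, 46.4 and 52.1 RPKM in WT and 2.26, 2.41, 1.93 and 2.42 in KO. The fall was 22.4-fold (-4.49 ± 0.07, adjusted p = 3.8e-13), nearly the same in each pair, and it held. Its difference at hours 12 and 16 was -4.43, and the values of the classes lay -0.05 ± 0.10 apart.

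Transcripts of the imprinted Gnas cluster on chromosome 2 also fell. Nespas, an antisense RNA of the cluster (chr2:174281237-174295436, minus strand), measured 2.27, 1.74, 1.53 and 2.00 RPKM in WT and 0.08, 0.08, 0.12 and 0.20 in KO (-3.20 ± 0.17, adjusted p = 4.1e-07). On average 68.8 fragments lay on it in WT libraries and 5.25 in KO libraries, and the call held. The table holds 3 models of Gnas, the stimulatory G protein alpha subunit. The longest one (chr2:174284320-174338090), which overlaps Nespas on the opposite strand, fell 2.45-fold, from 48.1 to 56.1 RPKM in WT to 19.6 to 23.1 in KO. The shorter models, which share most of their exons, each fell 1.29-fold, from 207 to 225 RPKM in WT to 160 to 175 in KO for the one listed (-0.37 ± 0.04, adjusted p = 9.4e-04, held). Without strand, reads of Nespas and the overlapping Gnas model cannot be told apart.

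Of 23 imprinted genes tested, 6 fell (against 2.08% of all genes tested), none rose and 17 did not pass. Their median difference was -0.08. Besides Grb10 and Gnas, Dlk1, a Delta-like regulator of differentiation, fell from 88.5 to 127 RPKM in WT to 64.8 to 83.6 in KO (-0.48 ± 0.07, adjusted p = 0.00356, held). Its adjusted p was 0.18 without the time point in the fit. The calls of H19 (-1.03, adjusted p = 0.048), Meg3 (-0.29, adjusted p = 0.048) and Plagl1 (-0.38, adjusted p = 0.0174) did not hold: without the 24 h pair their adjusted p were 0.25, 0.20 and 0.12. Without 28, 48 and 52 h they were 0.097, 0.096 and 0.11 for H19, 0.085, 0.14 and 0.14 for Meg3, and 0.041, 0.055 and 0.061 for Plagl1. At hours 12 and 16 H19 differed by 0.09 (limma adjusted p = 0.86), Meg3 by -0.31, Plagl1 by -0.24 and Dlk1 by -0.65. The difference of H19 between the hour classes did not pass (adjusted p = 0.99996). Igf2, Igf2r, Cdkn1c and Peg3, also imprinted, differed by -0.05 to -0.09.

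Interferon-induced genes were higher in KO. Of 12 members, 9 rose (against 2.35% of all genes tested), none fell and 3 (Ifit2, Bst2 and Rsad2) did not pass. The median difference of the list was 1.02 against 0.00 over all genes. Isg15, a ubiquitin-like modifier, measured 1.76, 2.37, 5.003 and 2.57 RPKM in WT and 10.8, 5.47, 15.2 and 6.56 in KO. It rose 3.15-fold (1.66 ± 0.24, adjusted p = 0.0034), and the call held. Oasl2, of the oligoadenylate synthetase family, measured 0.95, 0.88, 2.06 and 1.15 RPKM in WT and 2.83, 2.14, 6.39 and 2.79 in KO. It rose 2.58-fold (1.37 ± 0.13, adjusted p = 1.8e-04), which held. In both genotypes the 48 h library was the highest for each of these genes, and without the time point in the fit their adjusted p were 0.089 and 0.065.

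The rises of Ifit1 (1.43, adjusted p = 0.0034) and Ifi27 (0.55, adjusted p = 0.0054) also held, though not without the time point in the fit (0.18 and 0.058). Those of Ifit3 (1.11), Usp18 (1.44) and Stat2 (0.37) were lost without the 24 h pair (adjusted p of 0.097, 0.065 and 0.20). Ifit3 was also lost without 52 h (0.059), Stat2 without 28, 48 and 52 h (0.093, 0.16 and 0.063), and Irf7 (1.15) without 28, 48 and 52 h (0.078, 0.052 and 0.084). Isg15 was among the 10 largest rises of all genes, as were 3 interferon-induced genes outside the list, Ifi44 (3.28-fold), Ifi44l (3.14-fold) and Ifi27l2a (2.76-fold). Ifi44 (adjusted p = 0.0010) and Ifi27l2a (adjusted p = 2.1e-04; 0.054 without the time point in the fit) held, and Ifi44l (adjusted p = 0.030) was lost without 24, 28 and 48 h (0.18, 0.10 and 0.084). At hours 12 and 16 the list's median was 0.45 and 5 members rose, and the values of the classes lay 0.83 ± 0.29 apart for Ifit1, 0.49 ± 0.18 for Oasl2 and 0.81 ± 0.33 for Isg15 (adjusted p = 0.99996 each). Markers of leukocytes and macrophages, cells with a strong interferon response, were not called in any of 7 cases, with differences of -0.14 to 0.33 and summed levels of 352 to 490 RPKM in WT and 430 to 583 in KO. Their part in the interferon result was not tested.

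**Figure D4:**
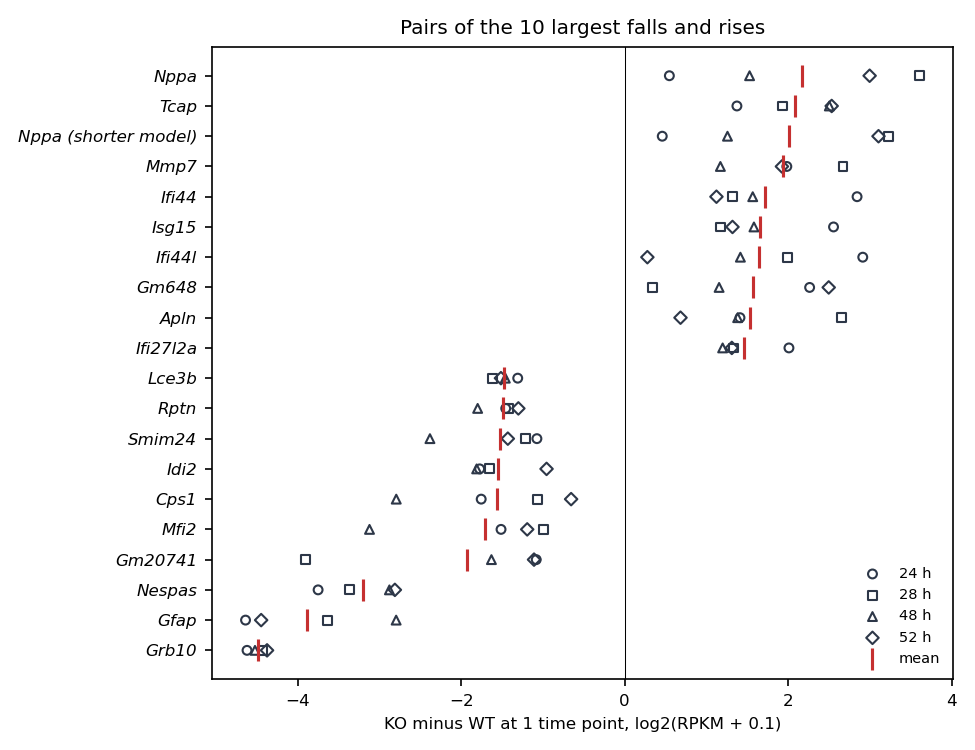
Difference between KO and WT at each time point (open symbols, log2(RPKM + 0.1)) and the mean of the 4 pairs (red bar) for the 10 largest falls and 10 largest rises among called genes with at least 1 RPKM in a genotype and the same direction in all pairs. The 4 pairs of Grb10 coincide near -4.5, whereas those of Nppa spread over more than 3 units.

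Genes of heart and striated muscle were first among the ranked rises. Tcap, the titin cap of the sarcomere, measured 0.44, 0.43, 0.29 and 0.49 RPKM in WT and 1.31, 1.91, 2.10 and 3.33 in KO, a mean of 6.38 and 39.9 fragments per library. It rose 4.24-fold (2.08 ± 0.19, adjusted p = 1.6e-04), which held. Nppa, the atrial natriuretic peptide, measured 0.61, 0.08, 0.16 and 0.17 RPKM in WT and 0.94, 2.08, 0.65 and 2.07 in KO, a mean of 3.38 and 23.6 fragments. Its 2.17 ± 0.52 (adjusted p = 0.036) was lost without 28, 48 and 52 h (0.13, 0.078 and 0.12). A shorter model of the same name on the opposite strand shares these reads and had 2.01 (adjusted p = 0.023).

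Of 11 heart and striated muscle markers, Nppa and Myl2 rose (against 2.35% of all genes tested) and 9 did not pass, with a median of 0.63. Myl2, the ventricular myosin light chain, measured 5.80, 4.04, 5.59 and 4.86 RPKM in WT and 5.32, 13.6, 14.003 and 20.6 in KO. The 24 h pair alone went the other way, and the call (1.24, adjusted p = 0.041) was lost without 28, 48 and 52 h (0.13, 0.12 and 0.15) and kept without 24 h (0.015). Tnnt2, the cardiac troponin T and the most abundant member, differed by -0.36 (adjusted p = 0.15), and the summed level of the list was 80.2 to 94.1 RPKM in WT and 73.2 to 142 in KO. At hours 12 and 16, 6 of the 11 rose.

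Epithelial markers rose in 4 of 8 cases and all 8 differences were above 0, with a median of 0.62. Over all 15112 genes tested, 2.35% rose and 7660 differences were above 0. Krt8, a keratin of simple epithelia, measured 65.5, 75.3, 122 and 83.1 RPKM in WT and 146, 130, 165 and 136 in KO (0.77 ± 0.13, adjusted p = 0.0085, lost without 24 h at 0.065). Its partner Krt18 (0.66), Krt19 (0.58) and the adhesion protein Cdh1 (0.54) also rose, and their calls were lost without 24 h (adjusted p of 0.15, 0.067 and 0.25) and without 28 h (0.061, 0.065 and 0.10). Krt18 was also lost without 52 h (0.073), and Cdh1 without 48 and 52 h (0.078 and 0.079). The summed level of the list was 453 to 662 RPKM in WT and 762 to 1009 in KO, with no overlap. Krt5 (0.65, adjusted p = 0.065) and Krt14 (0.80, adjusted p = 0.067), the keratins of basal layers, did not pass. Mmp7, a matrix metalloproteinase of epithelia, was among the largest rises, from 0.48 to 1.63 RPKM in WT to 2.89 to 4.31 in KO (1.94 ± 0.36, adjusted p = 0.0123, lost without 24 and 28 h at 0.072 and 0.066).

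Some genes of the outer, cornified layer of stratified epidermis fell. Rptn (repetin) measured 13.3, 15.1, 10.6 and 5.60 RPKM in WT and 4.78, 5.56, 2.99 and 2.22 in KO, a 2.81-fold fall (-1.49 ± 0.20, adjusted p = 0.0022, held). Lce3b, of the late cornified envelope family, fell 2.78-fold (-1.47 ± 0.17, adjusted p = 8.4e-04, held) at a mean of 20.0 and 8.13 fragments per library. Further members were chosen after their values were seen. Krt1, the keratin of differentiating layers, measured 85.1, 106, 50.2 and 44.0 RPKM in WT and 39.7, 38.8, 28.9 and 15.1 in KO (-1.22 ± 0.19, adjusted p = 0.0052, held), and Klk9, a kallikrein protease, fell 2.72-fold (adjusted p = 0.0105, held). Without the time point in the fit the adjusted p was 0.081 for Rptn and 0.090 for Krt1. A list of cornified layer genes was also drawn up after these values were seen, and it holds near-identical copies whose reads are uncertain. Of 42 tested, 8 fell (against 2.08% of all genes tested), none rose and 34 did not pass. The median difference was -0.60. Sprr1a (0.21), Sprr2d (0.82) and Sprr4 (0.47) of the same list had differences above 0 that did not pass. Summed levels overlapped, at 405 to 1119 RPKM in WT and 328 to 565 in KO, and at hours 12 and 16 the median was 0.03.

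Endothelial markers rose in 3 of 6 cases, against 2.35% of all genes tested. Pecam1 (0.81, adjusted p = 0.045), Cdh5, the endothelial cadherin (0.98, adjusted p = 0.028), and the receptor kinase Tie1 (0.80, adjusted p = 0.038) were all lost without 24 h (0.20, 0.11 and 0.18), 28 h (0.16, 0.10 and 0.14) or 52 h (0.092, 0.11 and 0.13). Kdr, Tek and Vwf differed by 0.27, -0.08 and 0.19 and did not pass, and summed levels overlapped at 5.35 to 10.8 RPKM in WT and 10.04 to 12.7 in KO. Apln, a peptide hormone made by endothelium among other cells, rose from 0.28 to 0.77 RPKM to 0.85 to 2.27 RPKM (1.53 ± 0.30, adjusted p = 0.0155, lost without 24, 28 and 48 h at 0.074, 0.068 and 0.051). Gm648, an unannotated gene, completed the largest rises (1.56 ± 0.30, adjusted p = 0.0152, lost without 24 and 52 h at 0.11 and 0.064).

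The remaining large falls varied more between libraries. Gfap, the intermediate filament of astrocytes, measured 3.97, 1.14, 0.65 and 2.29 RPKM in WT and 0.064, 0, 0.0085 and 0.0098 in KO, a mean of 88.1 fragments per library against 1. The call (adjusted p = 0.022) was lost without 24, 28 and 52 h (0.12, 0.068 and 0.071). None of the other 8 neuronal and glial markers was called, and their differences ran from -0.75 for Dcx to 0.50 for Sox1. Cps1, the first enzyme of the urea cycle, measured 4.29, 3.90, 6.87 and 1.20 RPKM in WT and 1.20, 1.81, 0.91 and 0.73 in KO (-1.57 ± 0.34, adjusted p = 0.025, lost without 24, 28 and 48 h at 0.13, 0.057 and 0.10). Mfi2, the melanotransferrin (-1.70, adjusted p = 0.0235), was lost without 24 and 48 h (0.097 and 0.094). Smim24 (-1.52, adjusted p = 0.0105) was lost without 48 h (0.052), and Gm20741 (-1.93, adjusted p = 0.027) without 24, 28 and 48 h (0.067, 0.085 and 0.073).

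Of 14 glucocorticoid-induced genes, 3 fell (against 2.08% of all genes tested), none rose and 11 did not pass, with a median of -0.07. Sgk1, a serum- and glucocorticoid-regulated kinase, measured 23.3, 21.6, 22.04 and 24.5 RPKM in WT and 17.0, 17.3, 17.8 and 20.1 in KO (-0.34 ± 0.05, adjusted p = 0.0057, held). Zbtb16 (PLZF) fell from 9.04 to 10.01 RPKM to 5.74 to 7.85 RPKM (-0.44 ± 0.08, adjusted p = 0.0111, lost without 24 h at 0.083). Pdk4, a kinase that inhibits pyruvate dehydrogenase, fell by 0.36 on the log2 scale (adjusted p = 0.0212, lost without 24, 28 and 48 h at 0.13, 0.058 and 0.094). Fkbp5, Tsc22d3 and Dusp1, induced by the same receptor, differed by -0.02 to 0.02, and the receptor gene Nr3c1 by -0.06 (adjusted p = 0.60).

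Of 21 genes of cholesterol and fatty acid synthesis, Scd1 rose, none fell and 20 did not pass, with 18 of 21 above 0 and a median of 0.14. Over all genes tested, 7660 of 15112 differences were above 0 and 2.35% of genes rose. Scd1, a stearoyl-CoA desaturase, measured 5.58, 6.11, 7.06 and 5.56 RPKM in WT and 7.32, 8.02, 9.95 and 7.45 in KO (0.42 ± 0.05, adjusted p = 0.0010, held). All 12 proliferation genes had differences above 0, with a median of 0.50, but only Rrm2, a ribonucleotide reductase subunit (0.50 ± 0.08, adjusted p = 0.0063, held; 0.059 without the time point in the fit), and Cdk1 (0.58 ± 0.13, adjusted p = 0.028) passed. Cdk1 was lost without any 1 pair (0.16, 0.058, 0.11 and 0.067 without 24, 28, 48 and 52 h). The summed level of the list was 28.9 to 31.9 RPKM in WT and 34.2 to 51.1 in KO.

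Collagens included some of the most abundant transcripts, and 12 of 15 were not called. The share called over all genes tested was 4.43%. Col14a1, a fibril-associated collagen, fell 1.54-fold, from 21.96 to 25.9 RPKM to 13.7 to 16.8 RPKM (-0.62 ± 0.06, adjusted p = 1.6e-04, held). Col15a1, of basement membranes, rose 1.63-fold (0.70 ± 0.10, adjusted p = 0.0040, held), and Col3a1 rose 1.26-fold (0.33 ± 0.08, adjusted p = 0.033) but was lost without any 1 pair (0.16, 0.10, 0.11 and 0.069 without 24, 28, 48 and 52 h). Of the other marker lists, none of 6 smooth muscle, 9 liver, yolk sac and endoderm, 4 cartilage and 4 pluripotency genes was called. Of 5 trophoblast genes, Hand1 rose (0.30, adjusted p = 0.034, lost without any 1 pair at 0.071 to 0.16), and no erythroid gene passed the filter, with a summed level of at most 0.27 RPKM.

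**Figure D5:**
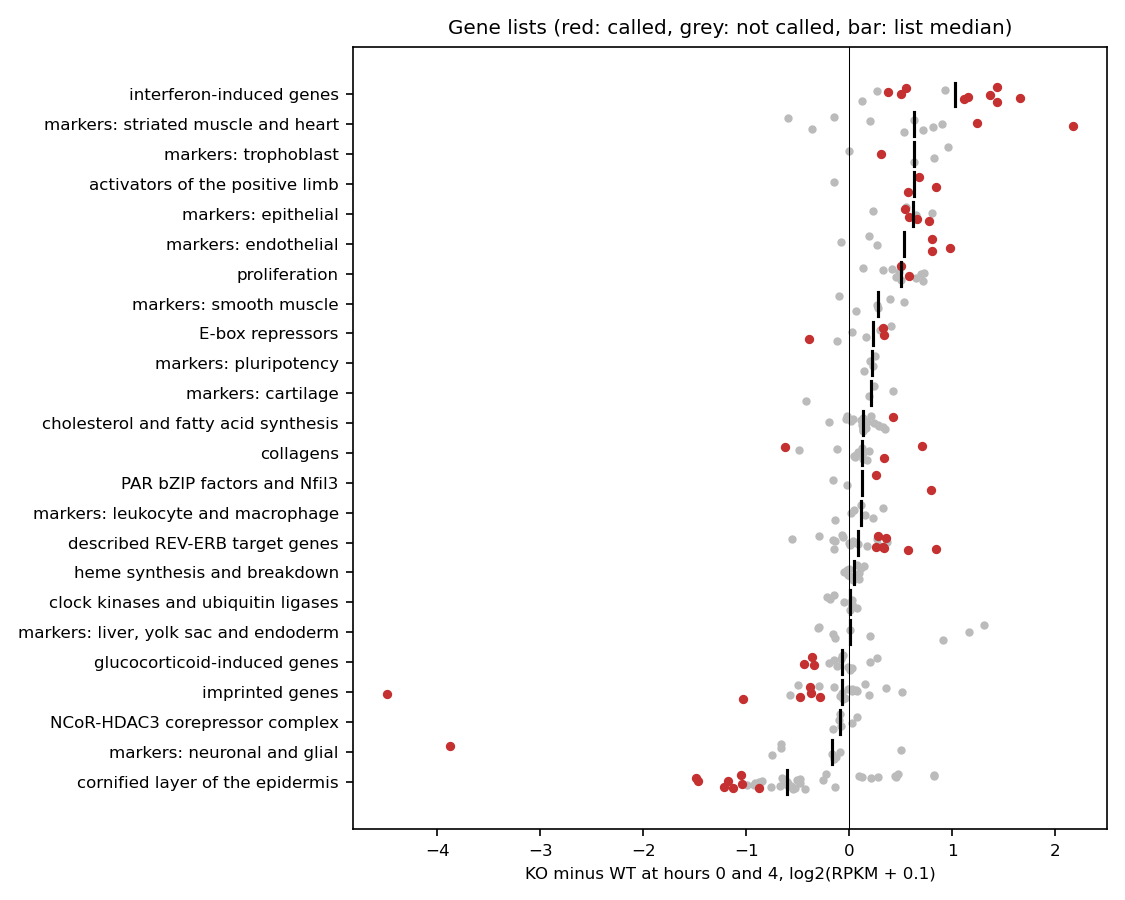
Difference between KO and WT at hours 0 and 4 (log2(RPKM + 0.1)) for every tested member of 24 gene lists, 1 point per gene, with called genes in red, others in grey and the list median as a black bar. Interferon-induced genes have the highest median (1.02). The cornified layer list, drawn up after these values were seen, has the lowest (-0.60), and the point near -4.5 is Grb10.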

How the data were processed

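RNA-seq libraries (polyA-selected, paired 101-base reads, TruSeq RNA v2, a kit that does not mark strand) were analysed as deposited. Per the paper's methods, the authors used Trimmomatic for trimming, STAR for mapping to GRCm38, a mapping quality filter, and Homer for counting reads on exons of UCSC gene models; the submitters' processing notes give Trimmomatic 0.36 and STAR 2.5.4b. The authors deposited RPKM values, normalized to exonic length and library total, for 33079 genes. RPKM times exonic length gave RPM for the filter, and with the library total it gave fragments for depth only, so no count test was used. No column of per-sample values was left unused (0).

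Genes with a mean above 0.5 RPM in WT or KO (15112) were fitted with limma 3.58.1 (R 4.3.3; moderated test with a trend, two-sided) on log2(RPKM + 0.1) over all 24 libraries, with the time point as a block and a KO effect per hour class (hours 0 and 4; 12 and 16; 8 and 20). P-values were Benjamini-Hochberg adjusted over all genes with a threshold of 0.05, and 9 residual degrees of freedom were left. WT and KO libraries of the same hour were paired because the labels share the time point. Deviations from group means correlated by 0.067 to 0.249 in the 4 same-hour pairs of which 1 was under 0.1, and by -0.252 to 0.127 in the 12 others. On simulated data with this design the fit called 26% of genes changed by 0.25 on the log2 scale, 72% at 0.5, 84% at 1 and 100% at 2, and 6 of 14912 unchanged genes. The simulation drew independent noise for each library and held no effect of the line. It changed 50 genes at each size, fewer in all than the 670 called here. These shares therefore need not be those of the real data.

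Genes named are the detected clock genes of the first lists, called members of the other lists, the 10 largest rises and falls among called genes of at least 1 RPKM in a genotype with all 4 pairs in 1 direction, and the 5 genes in each direction with the lowest p for the class difference among those of at least 1 RPKM in any of the 4 groups (genes without a symbol are not ranked, and Rev-erbα and Rev-erbβ are left out); others are said to have been chosen after their values were seen, apart from uncalled list members given as examples. Hours, members and lists were chosen with earlier results of these data known. Some genes are not reported here. Alternatives changed the time block, libraries in the fit, pseudocount, filter, normalization, variance trend and hours, and left out each pair. Tables and figures were made in Python 3.11.15 with pandas 2.3.3, numpy 2.4.6 and matplotlib 3.10.9.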

Additional observations from a re-analysis of the deposited data

Results flagged for a closer look

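In 7 of 178 groups of 4 libraries, 1 library lay farther from the other 3 than Dixon's criterion allows; chance alone flags about 1 group in 20. In WT, the 24 h library was set apart for Clock (2.58 RPKM, others 2.65 to 2.66), for the shorter Nppa model (0.428 RPKM, others 0.0918 to 0.139) and for Thra (30.3 RPKM, others 26.0 to 26.2), and the 48 h library for Uty (2.38 RPKM, others 1.81 to 1.89). In KO, the 48 h library was set apart for Oasl2 (6.39 RPKM, others 2.14 to 2.83) and Abi3bp (1.82 RPKM, others 1.98 to 2.01), and the 24 h library for Gfap (0.0637 RPKM, others 0 to 0.00977).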

How the results depend on the processing

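The counts of called genes depended on the settings, with 355 higher and 315 lower as reported. Without the time point as a replicate block they were 185 and 196, and 24 of the 64 named genes with a call kept it. Those lost include Cry1, Per2, Dbp and Nfil3. Of other genes whose call held without any 1 pair, Dlk1, Ifit1, Isg15, Oasl2, Ifi27, Ifi27l2a, Rptn and Rrm2 were also lost. Krt1 and Cldn5, chosen after their values were seen and not among the 64, lost theirs too. The counts were 164 and 168 with no filter on low values and 140 and 147 with the pairs at 28, 32, 52 and 56 h in place of these, while 223 were higher without a variance trend and 181 lower with only the 8 libraries compared. With only those 8 libraries, 46 of the 64 named genes kept their call and 18 lost it. Leaving out 1 pair gave 65 to 160 higher and 54 to 157 lower. The number of genes whose difference between hour classes passed was 0 under each setting in which it was fitted, that is all but the pairs at 28, 32, 52 and 56 h. The differences of Arntl, Npas2, Grb10, Nespas, Tcap and Col14a1 passed under all 9 alternatives and without any 1 pair. Of the genes named and not called, Cry2 changed sign without the 48 h pair (range over the left-out pairs -0.000515 to 0.0392) and at 28, 32, 52 and 56 h (-0.0892), and Hlf at those hours (0.0610); no called gene reversed. Each setting changes the spread, the samples or the genes adjusted over, and the cause of each lost call was not tested. With 4 pairs, differences near 0.25 on the log2 scale were mostly missed in a simulation of independent noise, whose shares need not be those of these data. Genes with under about 10 fragments per library carry large counting errors.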

Other observations

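The genes given here were chosen after their values were seen. Around Nr1d1 on chromosome 11, 37 other gene models within 1 Mb were tested, leaving out a model that lies within it, and 3 were called, Tcap, Thra and Cacnb1, against 4.43% of all genes. Thra, the thyroid hormone receptor alpha gene whose 3′ end overlaps that of Nr1d1 on the opposite strand (chr11:98741785-98769006), measured 30.3, 26.0, 26.2 and 26.0 RPKM in WT and 18.7, 18.3, 19.4 and 19.04 in KO. It fell 1.43-fold (-0.52 ± 0.06, limma adjusted p = 6.5e-04), the call held without any 1 pair, and the difference at hours 12 and 16 was -0.69. The model within Nr1d1 (chr11:98768996-98773402, plus strand) measured 1.55 to 2.14 RPKM in WT and 3.05 to 3.90 in KO. Without strand its reads cannot be told apart from those of Nr1d1, so no test of it is reported, although it is among the genes counted as called. Of 5 other gene models within 1 Mb of Nr1d2, 0 were called by limma at the adjusted threshold.

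Genes of chromosome Y were lower in KO: of 5 gene models tested, 4 fell and none rose, 2 of them overlapping models of Ddx3y. Of all genes tested, 2.08% fell. Uty, a histone demethylase family member, measured 1.86, 1.81, 2.38 and 1.89 RPKM in WT and 1.31, 1.15, 1.37 and 1.08 in KO (-0.65 ± 0.08, adjusted p = 0.00151), and the call held. Ddx3y (-0.68, adjusted p = 0.037) was lost without any 1 pair, and the translation factor gene Eif2s3y (-0.30, adjusted p = 0.032) was lost without 28, 48 and 52 h.

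In the marker lists 9 of 11 heart and striated muscle genes and 3 of 6 endothelial genes did not pass. Differences ran from -0.59 to 2.17 in the heart list and from -0.08 to 0.98 in the endothelial list. The genes that follow were picked after their values were seen and all rose, so they do not stand for other genes of these tissues. Of genes outside those lists, Nppb, the natriuretic peptide related to Nppa, rose 2.61-fold from 0.27 to 0.87 RPKM to 1.26 to 1.99 RPKM (1.39 ± 0.19, adjusted p = 0.0025, held), and the myoglobin gene Mb rose 2.53-fold (adjusted p = 0.026, lost without any 1 pair). Cldn5, a tight junction protein of endothelium, rose 2.13-fold (1.09 ± 0.17, adjusted p = 0.0054, held; 0.14 without the time point in the fit) at a mean of 7.75 and 23.9 fragments per library, and Esam, an endothelial adhesion molecule, rose 2.18-fold (adjusted p = 0.0168, lost without any 1 pair).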
